A study of Mus musculus with 20 samples.

Results

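The stem and progenitor transcription factors described here are 10 genes chosen by name: Myb, Myc, Runx1, Erg, Fli1, Mecom, Hlf, Etv6, Ikzf1 and Bmi1. All 10 were found among the 53379 gene identifiers of the RNA-seq tables, and all 10 passed the filter on low counts that left 15835 genes for testing. The 20 libraries came from lineage-negative (Lin-) hematopoietic progenitor cells, which are blood progenitors depleted of cells with mature lineage markers. Each culture was infected with a retroviral MSCV vector and harvested on day 3. Enhancer-null cells, which lack the -77 enhancer of Gata2, received R307W, T354M, wild-type GATA2 or an empty vector, and wild-type cells received an empty vector, with 4 libraries in each of these 5 groups. They are called R307W cells, T354M cells, GATA2 cells, enhancer-null cells and wild-type cells below. The labels of the GATA2, enhancer-null and wild-type cells give fetal liver of age E14.5, strain C57BL/6J, and a medium with serum and conditioned media containing interleukin 3 and stem cell factor. The labels of the R307W and T354M cells give the cell type, genotype, vector and culture time only. A difference in handling between those sets therefore cannot be told apart from the effect of a variant.

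GATA2, a zinc finger factor, acts in the stem cells and progenitors of blood, and R307W and T354M are substitutions in its N-terminal and C-terminal finger that are known from inherited GATA2 deficiency and myeloid malignancy. RUNX1, ERG and FLI1 bind together with GATA2, TAL1, LYL1 and LMO2 at many enhancers of blood progenitors, a group known as the heptad. MYB and MYC drive progenitor proliferation, MECOM and HLF are linked to stem cell self-renewal, ETV6 is an ETS-family repressor, IKZF1 is the zinc finger factor Ikaros, and BMI1 is a subunit of Polycomb repressive complex 1.

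Library totals ran from 22330475 to 33245876 expected counts, of which 20.0% to 27.1% fell on mitochondrially encoded genes. The progenitor markers Kit, Cd34, Flt3 and Ptprc were detected in all 5 groups, at levels that differed between them. Gata2 itself, the targeted gene, was 5.53, 5.24, 4.72 and 7.67 CPM (the count scaled to a common library size) in the 4 enhancer-null libraries, against 53.0, 31.5, 41.8 and 50.9 CPM in the wild-type libraries. With the vectors it reached 39.5 to 89.5 CPM in R307W cells, 33.6 to 73.8 CPM in T354M cells and 42.9 to 132 CPM in GATA2 cells, counts in which the vector and the gene cannot be told apart. Replicate 4 had the highest Gata2 of its group with each of the 3 vectors. The labels do not say whether replicates came from separate animals or cultures, so p-values measure the spread between these libraries, which may be technical. In bulk RNA, fewer cells of a type and less RNA per cell cannot be told apart.

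On the length-corrected scale (TPM, the transcript share of a library), Ikzf1 and Myb had the highest levels of the 10 genes in every group, and Erg, Hlf and Mecom the lowest. Myb averaged 137 ± 23.7 TPM in R307W cells, 171 ± 24.3 TPM in T354M cells and 102 ± 12.4 TPM in GATA2 cells, above every Ikzf1 value of the same group (SD, n = 4 each). In enhancer-null cells Ikzf1 averaged 52.8 ± 3.98 TPM and Myb 50.7 ± 5.59 TPM, and in wild-type cells Ikzf1 averaged 68.6 ± 7.18 TPM and Myb 68.8 ± 5.43 TPM, with overlapping libraries in both groups. Fli1, Runx1, Bmi1, Etv6 and Myc lay between, at group means of 10.8 to 48.0 TPM, and most neighbours in that order overlapped. Erg averaged 14.4 ± 1.01 TPM in T354M cells and 5.52 to 7.20 TPM in the other 4 groups. Hlf stayed at group means of 0.888 to 1.62 TPM and Mecom at 0.220 to 1.17 TPM, so both rest on few reads.

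**Figure D1:**
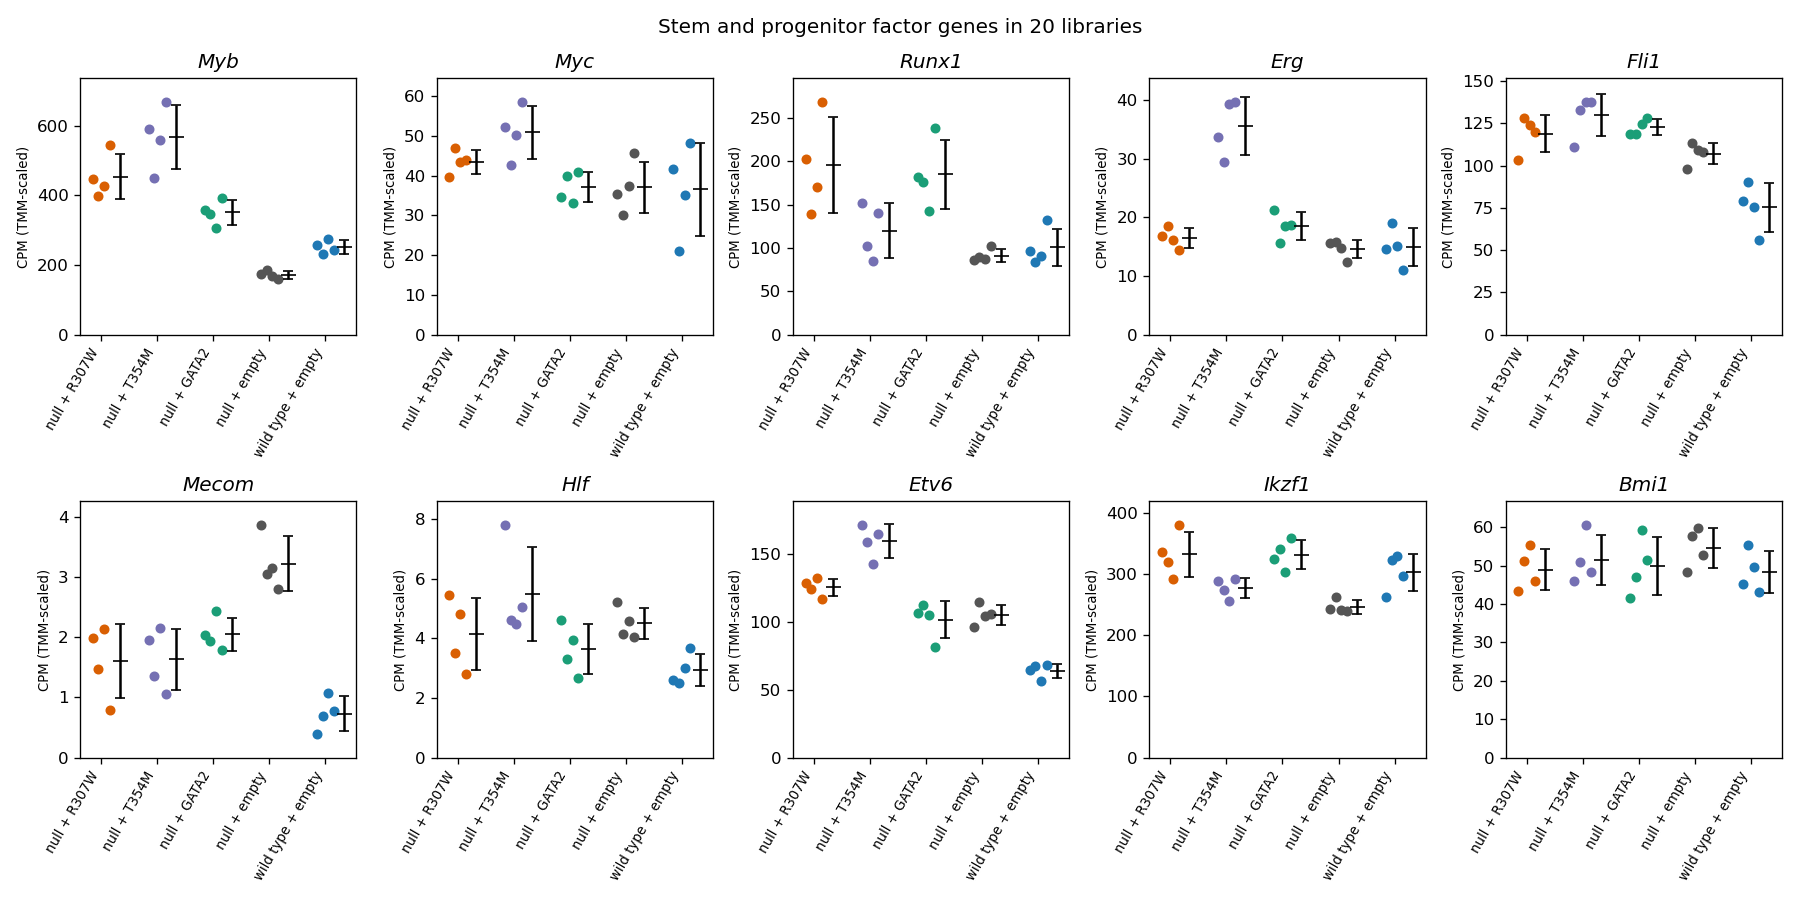
Level of each of the 10 genes in every library, in CPM on a linear axis that starts at 0, by group, with each point a library and each bar the mean with its SD (n = 4). Myb is lowest in enhancer-null cells and highest in T354M cells, Erg stands apart in T354M cells at 29.4 to 39.7 CPM, and Mecom lies between 0.391 and 3.87 CPM in all libraries.

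Loss of the enhancer changed 6 of the 10 genes at an adjusted p under 0.05 in edgeR's quasi-likelihood test. Etv6, Fli1, Mecom and Hlf were higher in enhancer-null than in wild-type cells, and Myb and Ikzf1 were lower. Of all 15835 genes tested, 43.3% were called in this comparison, 20.1% as higher and 23.2% as lower, so that 6 of 10 is to be read against a large background. In 4 genes all enhancer-null libraries lay above all wild-type libraries and in 1, Myb, all lay below, against 38.8% of tested genes with libraries apart in either direction, 18.7% above and 20.1% below. The median log2 difference of the 10 genes was 0.10, beside -0.05 over all genes.

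The markers of progenitors and of dendritic cells changed between the same groups, and their part in the results for the 10 genes was not tested. Cd34, a surface protein of stem and progenitor cells, averaged 399 ± 26.7 CPM in enhancer-null cells and 60.5 ± 16.4 CPM in wild-type cells, and Flt3, the receptor for FLT3 ligand, averaged 91.8 ± 9.38 and 5.92 ± 2.03 CPM in the same order (SD, n = 4 each; edgeR adjusted p = 1.59e-07 and 1.21e-06). Ptprc, which encodes CD45, was also higher in enhancer-null cells (660 ± 33.2 CPM, against 279 ± 94.0 CPM in wild-type cells; edgeR adjusted p = 1.83e-05), while Kit, the receptor for stem cell factor, was lower (76.5 ± 2.86 CPM, against 122 ± 17.8 CPM; edgeR adjusted p = 0.000306). Against enhancer-null cells, Flt3 was called lower with each vector, Cd34 lower with R307W and GATA2, and Ptprc lower and Kit higher with T354M. The 6 dendritic cell markers, a list that also holds Flt3, were all called higher on enhancer loss and all called lower with each vector. They summed to 65.3 to 200 CPM in R307W cells, 74.7 to 199 CPM in T354M cells, 76.5 to 242 CPM in GATA2 cells, 329 to 480 CPM in enhancer-null cells and 36.2 to 51.5 CPM in wild-type cells.

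The 3 vectors were then compared with enhancer-null cells that had received an empty vector, so that these comparisons share the same 4 control libraries. GATA2 raised 3 of the 10 genes, Myb, Runx1 and Ikzf1, and lowered none, beside 19.2% of all genes called (11% higher, 8.23% lower). With the replicate block over the 16 enhancer-null libraries it also raised Fli1 and lowered Mecom, which makes 5 called genes beside 34% of all genes. R307W raised the genes Myb, Runx1 and Ikzf1 and lowered Mecom, beside 17.5% of all genes called (10% higher, 7.48% lower). T354M raised Myb, Erg and Etv6 and lowered Mecom, beside 17.4% of all genes called (9.26% higher, 8.11% lower). The same block called 5 genes with R307W, adding Bmi1 as lower, beside 5341 of all 15469 genes tested with it. With T354M the block called 6 genes, adding Myc and Fli1 as higher, beside 4984 of the 15469. For both variants against enhancer-null cells the replicate numbers were not taken to pair the libraries. Libraries lay apart from all enhancer-null libraries in 4 genes above and 1 below with R307W (27.1% of tested genes, 13.9% above and 13.1% below), in 3 above and 1 below with T354M (24.9%, 12.5% and 12.4%), and in 4 above and 1 below with GATA2 (28.3%, 14.3% and 14%). Median log2 differences of the 10 genes were 0.20 with R307W, 0.34 with T354M and 0.10 with GATA2, beside 0.02, 0.02 and 0.00 over all genes.

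**Figure D2:**
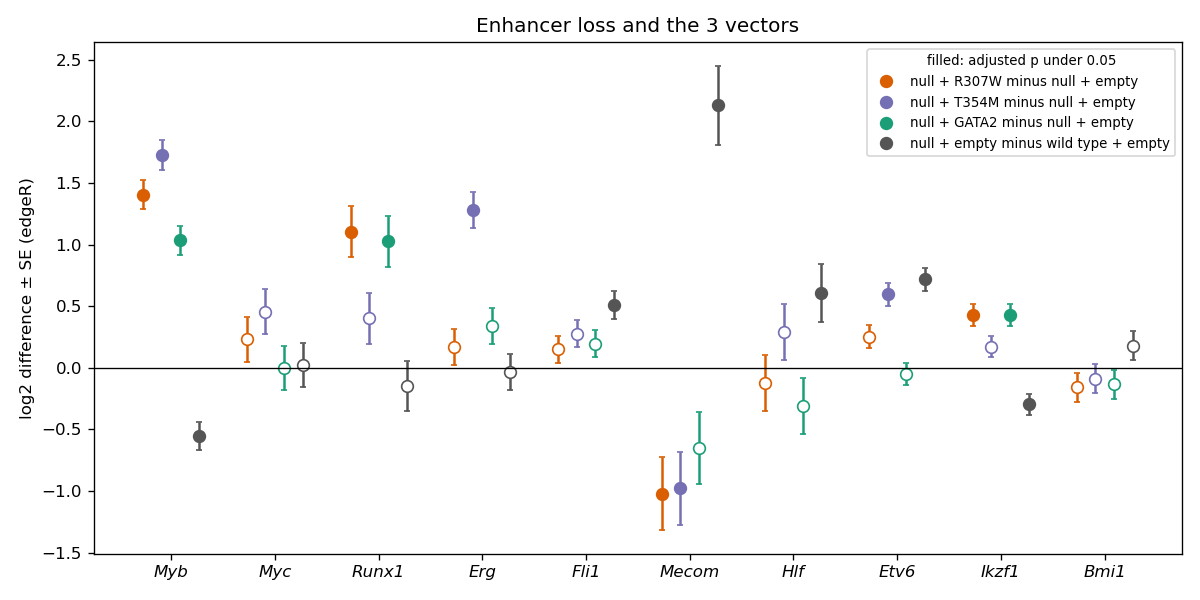
Log2 differences of the 10 genes with their standard errors for R307W, T354M and GATA2 cells against enhancer-null cells and for enhancer-null against wild-type cells, all from edgeR. Myb has positive differences of 1.03 to 1.73 with the 3 vectors and -0.55 on enhancer loss, and Mecom has negative differences with each vector and 2.13 on enhancer loss.

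GATA factors bind the letters GATA with A or T before them and A or G after them. Promoters were read on either strand for AGATAA, for the same motif ending in G (AGATAG), and for both with a first T, which are TGATAA in the first case and TGATAG in the second. RefSeq (GRCm38.p6) gave 13 windows of 250 bases upstream of a start for 8 of the 10 genes, and none for Myc and Fli1 in the table used. A motif was in 3 of the 13 windows, beside 26.5% of all 32851 windows of that length. The sequences below are shown because they hold the 3 windows with a motif, of Mecom and Erg, and beside them the windows without one of Runx1 and Myb, which rose with GATA2. Windows without a motif that are not shown are those of Ikzf1, which also rose with GATA2, of Bmi1, Etv6 and Hlf, and of other Erg starts. They are written on the gene's strand, 5′ to 3′, with the motif in capitals.
Mecom, upstream start, chr3:30509760-30510009, minus strand: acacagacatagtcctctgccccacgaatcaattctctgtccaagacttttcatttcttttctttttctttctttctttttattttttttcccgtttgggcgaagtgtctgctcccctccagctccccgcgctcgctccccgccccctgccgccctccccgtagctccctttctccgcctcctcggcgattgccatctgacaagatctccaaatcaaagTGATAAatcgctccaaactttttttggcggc
Mecom, inner start, chr3:30013205-30013454, minus strand: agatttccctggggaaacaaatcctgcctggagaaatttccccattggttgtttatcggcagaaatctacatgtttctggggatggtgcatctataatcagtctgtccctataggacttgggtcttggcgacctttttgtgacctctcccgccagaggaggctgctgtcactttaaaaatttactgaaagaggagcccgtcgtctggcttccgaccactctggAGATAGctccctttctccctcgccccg
Erg, inner start, chr16:95459349-95459598, minus strand: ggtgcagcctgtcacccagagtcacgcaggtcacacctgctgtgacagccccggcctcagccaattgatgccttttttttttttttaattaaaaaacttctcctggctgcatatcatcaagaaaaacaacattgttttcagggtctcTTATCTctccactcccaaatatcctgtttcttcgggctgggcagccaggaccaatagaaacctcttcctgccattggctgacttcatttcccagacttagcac
Runx1, distal start, chr16:92826075-92826324, minus strand: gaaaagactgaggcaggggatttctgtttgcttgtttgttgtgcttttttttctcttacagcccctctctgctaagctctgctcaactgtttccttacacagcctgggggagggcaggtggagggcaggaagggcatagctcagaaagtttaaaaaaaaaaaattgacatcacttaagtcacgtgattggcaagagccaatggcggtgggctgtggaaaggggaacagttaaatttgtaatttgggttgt
Runx1, proximal start, chr16:92697330-92697579, minus strand: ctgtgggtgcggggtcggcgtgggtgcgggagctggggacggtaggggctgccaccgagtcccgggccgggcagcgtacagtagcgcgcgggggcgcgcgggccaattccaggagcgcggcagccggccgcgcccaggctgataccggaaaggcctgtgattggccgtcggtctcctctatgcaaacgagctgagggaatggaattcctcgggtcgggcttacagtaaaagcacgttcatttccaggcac
Myb, chr10:21160985-21161234, minus strand: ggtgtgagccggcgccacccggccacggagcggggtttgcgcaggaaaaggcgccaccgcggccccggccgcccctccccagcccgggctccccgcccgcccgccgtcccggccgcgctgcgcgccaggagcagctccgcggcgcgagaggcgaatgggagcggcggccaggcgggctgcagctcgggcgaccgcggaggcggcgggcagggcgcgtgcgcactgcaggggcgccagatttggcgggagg
The motif TGATAA lay 31 to 26 bases before the upstream Mecom start, and AGATAG lay 27 to 22 bases before the inner one. In Erg the capitals TTATCT are AGATAA read on the other strand, 103 to 98 bases before the start. A match describes the letters in the window, and the absence of a match in Runx1 and Myb says only that these letters are not in these windows.

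Myb encodes a transcription factor that progenitors need to proliferate. It was 447, 398, 426 and 545 CPM in the R307W libraries, 592, 449, 559 and 669 CPM in the T354M libraries, 359, 347, 306 and 392 CPM in the GATA2 libraries, 173, 186, 167 and 159 CPM in the enhancer-null libraries and 259, 231, 276 and 242 CPM in the wild-type libraries. All enhancer-null libraries lay below all others, and every library with a vector coding for GATA2 or a variant lay above every wild-type library. Against wild-type cells, Myb was lower in enhancer-null cells by a log2 difference of -0.55 (SE 0.12, edgeR adjusted p = 0.000668). Against enhancer-null cells, the log2 difference was 1.41 with R307W (SE 0.12, edgeR adjusted p = 2.32e-07), 1.73 with T354M (SE 0.12, edgeR adjusted p = 9.97e-09) and 1.03 with GATA2 (SE 0.12, edgeR adjusted p = 9.24e-06). T354M cells exceeded GATA2 cells by 0.69 (SE 0.12, edgeR adjusted p = 0.000507). R307W cells did not pass against GATA2 cells, at 0.37 with a 95% interval of 0.13 to 0.62 (edgeR adjusted p = 0.141), although all 4 R307W libraries lay above all 4 GATA2 libraries. GATA2 cells exceeded wild-type cells by 0.48 (SE 0.12, edgeR adjusted p = 0.0036).

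The markers of eosinophils, like Myb, were lowest in enhancer-null cells, and their order among the vectors differed from marker to marker. The 4 eosinophil markers summed to 993 to 2147 CPM in R307W cells, 982 to 5453 CPM in T354M cells, 1671 to 2895 CPM in GATA2 cells, 2.05 to 6.47 CPM in enhancer-null cells and 474 to 759 CPM in wild-type cells, and their part in the result was not tested. The median sum was 1706 CPM with R307W, 1955 CPM with T354M and 2763 CPM with GATA2. Il5ra averaged 37.8 ± 10.4 CPM in R307W cells, 55.5 ± 27.1 CPM in T354M cells and 27.3 ± 4.24 CPM in GATA2 cells (SD, n = 4 each). That is the order of Myb, which the means of Epx, Prg2 and Prg3 did not have. Epx, eosinophil peroxidase, averaged 11.9 ± 4.66 CPM in R307W cells, 536 ± 454 CPM in T354M cells and 287 ± 74.4 CPM in GATA2 cells (SD, n = 4 each). Siglecf, an eosinophil surface lectin of the mouse, was the gene most like Myb across the 20 libraries, with a Pearson r of 0.985 on log2 CPM, and Chdh, choline dehydrogenase, followed at 0.974. These correlations describe libraries that share groups, and no test was made of them.

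Myc, the growth regulator that dimerises with MAX, was called by edgeR in none of the 8 comparisons in the fit of all 20 libraries without a replicate block. It was 39.6, 47.0, 43.5 and 43.8 CPM in the R307W libraries, 52.2, 42.6, 50.1 and 58.6 CPM in the T354M libraries, 34.7, 39.9, 33.1 and 40.8 CPM in the GATA2 libraries, 35.4, 29.99, 37.3 and 45.6 CPM in the enhancer-null libraries and 41.7, 21.1, 35.0 and 48.1 CPM in the wild-type libraries. The enhancer-null and wild-type libraries overlapped, and all T354M libraries lay above all GATA2 libraries. With T354M against GATA2 the log2 difference was 0.46 (SE 0.18, edgeR adjusted p = 0.134), and 0.43 with the replicate number as a block over the 16 enhancer-null libraries (SE 0.10, edgeR adjusted p = 0.0102). Of 15 growth genes that respond to MYC, 3 were called higher and 1 lower in enhancer-null cells, 1 was called higher with GATA2, and none was called with R307W or T354M. These shares lie below the 43.3%, 19.2%, 17.5% and 17.4% of all genes called in those comparisons. The called growth genes included Ccnd2, a D-type cyclin, at 96.8 ± 8.14 CPM in enhancer-null cells and 50.4 ± 15.2 CPM in wild-type cells (SD, n = 4 each; log2 0.94, edgeR adjusted p = 0.0009).

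The partners and antagonists of MYC were called in 2 of 8 cases on enhancer loss, both lower, beside 43.3% of all genes. These were Mxd1 and Mxi1, which compete with MYC for MAX. Mxd1 averaged 27.4 ± 4.53 CPM in enhancer-null cells and 83.0 ± 18.8 CPM in wild-type cells (SD, n = 4 each; log2 -1.60, edgeR adjusted p = 1.21e-06). Mxi1 averaged 18.3 ± 2.34 CPM in enhancer-null cells and 41.1 ± 2.55 CPM in wild-type cells (log2 -1.16, edgeR adjusted p = 1.88e-06). T354M raised 3 of the 8, Mlx, Mxd4 and Mxi1, while R307W raised Mlx alone and GATA2 raised Mxd1 alone, beside 17.4%, 17.5% and 19.2% of all genes called. Mlx, the partner of the glucose-sensing MondoA factors, averaged 57.9 ± 8.31 CPM in T354M cells and 38.8 ± 1.23 CPM in enhancer-null cells (SD, n = 4 each; edgeR adjusted p = 0.000394).

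Runx1, the DNA-binding subunit of core-binding factor, was raised by GATA2 and by R307W. It was 203, 140, 171 and 269 CPM in the R307W libraries, 152, 103, 85.3 and 140 CPM in the T354M libraries, 182, 177, 143 and 238 CPM in the GATA2 libraries, 85.5, 89.2, 86.9 and 102 CPM in the enhancer-null libraries and 96.4, 83.3, 90.5 and 132 CPM in the wild-type libraries. All R307W and all GATA2 libraries lay above all enhancer-null libraries, while the T354M libraries overlapped them. The log2 difference from enhancer-null cells was 1.11 with R307W (SE 0.21, edgeR adjusted p = 0.00133), 0.40 with T354M (SE 0.21, edgeR adjusted p = 0.196) and 1.03 with GATA2 (SE 0.21, edgeR adjusted p = 0.00206). GATA2 cells also exceeded wild-type cells, by 0.88 (SE 0.21, edgeR adjusted p = 0.00307), whereas enhancer loss itself gave no call (edgeR adjusted p = 0.599, with a 95% interval of -0.59 to 0.29).

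The calls of Runx1 between T354M and the other vectors depended on the test. T354M cells were below GATA2 cells by a log2 difference of -0.62 (SE 0.21), which missed the threshold (edgeR adjusted p = 0.0638). With the replicate number as a block it was -0.63 over 20 libraries (SE 0.12, edgeR adjusted p = 0.00238) and -0.66 over the 16 enhancer-null libraries (edgeR adjusted p = 0.00295). R307W cells exceeded T354M cells by 0.70 (SE 0.21, edgeR adjusted p = 0.0718), and with the block by 0.69 over 20 libraries (SE 0.12, edgeR adjusted p = 0.0027) and 0.71 over the 16 enhancer-null libraries (edgeR adjusted p = 0.0038). Both were also called without the filter on low counts (edgeR adjusted p = 0.0315 and 0.0244) and by the DESeq2 Wald test (DESeq2 adjusted p = 0.0318 and 0.0288). The call of T354M against GATA2 also came without GATA2 replicate 3 (edgeR adjusted p = 0.0288) or T354M replicate 1 (edgeR adjusted p = 0.0391), and that of R307W against T354M without R307W replicate 2 (edgeR adjusted p = 0.0271). In the other 13 and 14 of the 19 alternatives for each there was no call, with an adjusted p up to 0.402 and 0.368 in limma on log2(TPM + 1) without a filter. Replicate 4 had the highest Runx1 of its group with R307W and with GATA2, and replicate 1 with T354M.

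Erg, an ETS-family activator of the heptad, was higher with T354M than in any other group. It was 16.8, 18.5, 16.1 and 14.4 CPM in the R307W libraries, 33.7, 29.4, 39.4 and 39.7 CPM in the T354M libraries, 21.3, 15.6, 18.4 and 18.6 CPM in the GATA2 libraries, 15.7, 15.8, 14.7 and 12.3 CPM in the enhancer-null libraries and 14.7, 19.0, 15.1 and 11.1 CPM in the wild-type libraries. All 4 T354M libraries lay above all 16 others, which overlapped among themselves. T354M cells exceeded enhancer-null cells by a log2 difference of 1.28 (SE 0.15, edgeR adjusted p = 6.93e-06) and GATA2 cells by 0.94 (SE 0.15, edgeR adjusted p = 0.000269). R307W cells were below T354M cells by a log2 difference of -1.11 (SE 0.15, edgeR adjusted p = 0.000201). These 3 calls held in each of the 19 alternatives tried for each. Neither GATA2 (edgeR adjusted p = 0.114) nor R307W (edgeR adjusted p = 0.461) passed against enhancer-null cells.

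The gene most like Erg over the 20 libraries was Ctsg, the granule protease cathepsin G (Pearson r = 0.934), followed by Ms4a3 (0.901), a membrane protein of granulocyte and monocyte progenitors. Mpo, myeloperoxidase of primary granules, averaged 4532 ± 886 CPM in T354M cells and 1664 ± 173 CPM in enhancer-null cells (SD, n = 4 each; log2 1.45, edgeR adjusted p = 5.93e-06). Elane, neutrophil elastase, averaged 86.0 ± 9.54 CPM in T354M cells and 49.7 ± 8.69 CPM in enhancer-null cells (SD, n = 4 each; log2 0.79, edgeR adjusted p = 0.00949). The other 4 of the 6 neutrophil markers were not called with T354M, at log2 differences of 0.95 for Ngp, 0.15 for Ltf, -0.14 for Camp and -0.44 for S100a8. Mpo was also higher with R307W, at 3413 ± 624 CPM in R307W cells and 1664 ± 173 CPM in enhancer-null cells (SD, n = 4 each; log2 1.04, edgeR adjusted p = 0.000242), while Camp, Ltf and S100a8 were lower with R307W. The 6 neutrophil markers, with Mpo the largest part of the sum in T354M cells, summed to 5233 to 6876 CPM in T354M cells, 3317 to 4966 CPM in R307W cells, 2180 to 3062 CPM in GATA2 cells, 2686 to 3556 CPM in enhancer-null cells and 5278 to 10160 CPM in wild-type cells. Their part in the Erg result was not tested. ERG is also known from endothelial cells, and the 5 endothelial markers summed to 101 to 187 CPM in T354M cells and 58.7 to 69.4 CPM in enhancer-null cells. The sums were also above those of enhancer-null cells in R307W cells, at 85.4 to 110 CPM, and in GATA2 cells, at 109 to 146 CPM. Those of T354M cells overlapped both. Of the 5, Pecam1, which blood cells also express, was called higher with T354M (135 ± 39.4 CPM, against 48.9 ± 2.51 CPM in enhancer-null cells) and Cdh5 lower (0.798 ± 0.438 CPM, against 2.63 ± 1.40 CPM; SD, n = 4 each), while Kdr, Tek and Emcn were not called, and their part in the Erg result was not tested.

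Fli1, an ETS factor closely related to ERG, was higher on enhancer loss, and no vector changed it in the fit of all 20 libraries without a replicate block. It was 103, 128, 124 and 120 CPM in the R307W libraries, 111, 133, 138 and 138 CPM in the T354M libraries, 119, 119, 125 and 128 CPM in the GATA2 libraries, 98.3, 113, 109 and 108 CPM in the enhancer-null libraries and 79.3, 90.1, 75.6 and 56.0 CPM in the wild-type libraries. The wild-type libraries lay below all 16 others. The log2 difference of enhancer-null from wild-type cells was 0.51 (SE 0.11, edgeR adjusted p = 0.000997), and that of GATA2 cells from wild-type cells was 0.71 (SE 0.11, edgeR adjusted p = 8.26e-05). With GATA2 all 4 libraries lay above the enhancer-null libraries by a log2 difference of 0.20 (SE 0.11, edgeR adjusted p = 0.245), which passed with the replicate block over the 16 enhancer-null libraries (0.18, SE 0.05, edgeR adjusted p = 0.0151). The T354M difference from enhancer-null cells was 0.28 (SE 0.11, edgeR adjusted p = 0.0921), and it passed with that block too (edgeR adjusted p = 0.00418). For T354M against enhancer-null cells the replicate numbers were not taken to pair the libraries.

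Etv6 encodes an ETS-family repressor that hematopoiesis in the bone marrow requires. It was 128, 124, 132 and 117 CPM in the R307W libraries, 171, 159, 142 and 164 CPM in the T354M libraries, 107, 113, 105 and 81.5 CPM in the GATA2 libraries, 96.0, 114, 104 and 106 CPM in the enhancer-null libraries and 64.2, 67.0, 56.1 and 67.8 CPM in the wild-type libraries. The wild-type libraries were lowest and the T354M libraries highest, neither overlapping any other group, and the GATA2 and enhancer-null libraries overlapped. Enhancer loss gave a log2 difference of 0.72 (SE 0.09, edgeR adjusted p = 5.83e-06). GATA2 cells still exceeded wild-type cells by 0.67 (SE 0.09, edgeR adjusted p = 2.27e-05), and GATA2 against the empty vector gave no call (edgeR adjusted p = 0.782, with a 95% interval of -0.25 to 0.15). T354M added a further 0.60 to the level of enhancer-null cells (SE 0.09, edgeR adjusted p = 0.000225) and exceeded GATA2 by 0.65 (SE 0.09, edgeR adjusted p = 0.00014).

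R307W lay between the other vectors in Etv6. It was above enhancer-null cells by a log2 difference of 0.25 (SE 0.09, edgeR adjusted p = 0.0665) and above GATA2 cells by 0.30 (SE 0.09, edgeR adjusted p = 0.137), neither of which passed, although all R307W libraries lay above all libraries of both. It was below T354M by a log2 difference of -0.35 (SE 0.09, edgeR adjusted p = 0.0456), a call that was lost in 13 of 19 alternatives, among them the omission of any 1 of the 4 R307W libraries (edgeR adjusted p = 0.0654 to 0.179) and limma on log2(TPM + 1) without a filter, which gave the highest (limma adjusted p = 0.533).

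**Figure D3:**
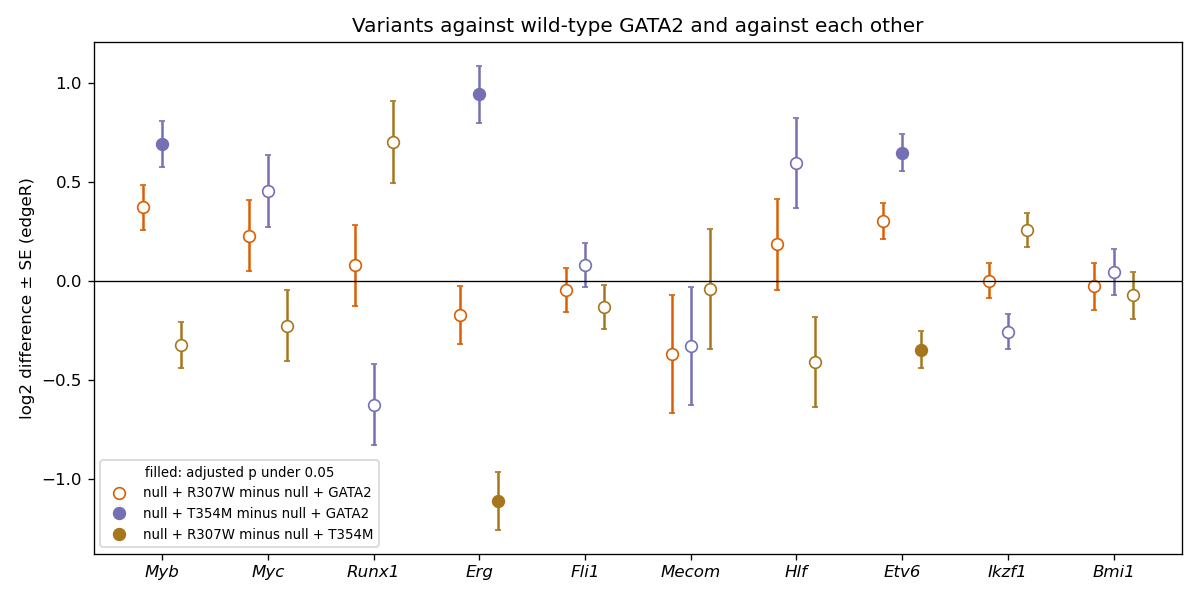
Log2 differences of the 10 genes with their standard errors for R307W against GATA2, T354M against GATA2 and R307W against T354M, all from edgeR. Myb, Erg and Etv6 are higher with T354M than with GATA2, by 0.69, 0.94 and 0.65, and Runx1 has -0.62 in the same comparison.

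Mecom encodes EVI1 and related zinc finger proteins of long-term stem cells. It was 1.99, 1.47, 2.15 and 0.785 CPM in the R307W libraries, 1.96, 1.35, 2.16 and 1.06 CPM in the T354M libraries, 2.04, 1.94, 2.44 and 1.78 CPM in the GATA2 libraries, 3.87, 3.06, 3.15 and 2.81 CPM in the enhancer-null libraries and 0.391, 0.687, 1.08 and 0.772 CPM in the wild-type libraries. The enhancer-null libraries lay above all others, and these values rest on 72 to 103 expected counts in enhancer-null and 9 to 23 in wild-type libraries. The log2 difference on enhancer loss was 2.13 (SE 0.32, edgeR adjusted p = 2.7e-05), and 0.81 to 2.41 over the alternatives, lowest on log2(TPM + 1), a scale that understates changes of low genes. Against enhancer-null cells it was -1.02 with R307W (SE 0.30, edgeR adjusted p = 0.0245), -0.98 with T354M (SE 0.30, edgeR adjusted p = 0.0293) and -0.65 with GATA2 (SE 0.29, edgeR adjusted p = 0.131), the last passing with the replicate block over the 16 enhancer-null libraries (-0.67, SE 0.19, edgeR adjusted p = 0.0145). GATA2 cells stayed above wild-type cells by 1.48 (SE 0.32, edgeR adjusted p = 0.00155).

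The Mecom calls with the variants rested on single libraries. With R307W the call was lost without enhancer-null replicate 1 (edgeR adjusted p = 0.07) or R307W replicate 4 (edgeR adjusted p = 0.0933). With T354M it was lost without enhancer-null replicate 1 (0.0847) or 3 (0.0553), or without T354M replicate 2 (0.0594) or 4 (0.106), all edgeR adjusted p. Tgtp2 and Ifi47, which encode interferon-inducible GTPases, were most like Mecom over the 20 libraries, with a Pearson r of 0.938 and 0.931. Of the 5 endothelial markers, Kdr and Emcn were called higher on enhancer loss and Cdh5, Pecam1 and Tek were not called. Kdr averaged 8.37 ± 0.772 CPM in enhancer-null cells and 3.81 ± 1.32 CPM in wild-type cells (SD, n = 4 each; edgeR adjusted p = 0.0305), and Emcn 1.44 ± 0.892 and 0.498 ± 0.187 CPM in the same order (edgeR adjusted p = 0.017). The sum of the 5 overlapped, at 58.7 to 69.4 CPM in enhancer-null and 49.7 to 70.2 CPM in wild-type cells, and its part in the Mecom result was not tested.

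Hlf, a PAR-type leucine zipper factor of stem cells, was near the limit of these data. It was 5.44, 3.51, 4.83 and 2.81 CPM in the R307W libraries, 7.82, 4.63, 4.47 and 5.06 CPM in the T354M libraries, 4.62, 3.31, 3.94 and 2.67 CPM in the GATA2 libraries, 5.23, 4.15, 4.59 and 4.05 CPM in the enhancer-null libraries and 2.61, 2.503, 3.00 and 3.67 CPM in the wild-type libraries. The enhancer-null libraries lay above the wild-type libraries without overlap, and the R307W and GATA2 libraries overlapped both. The T354M libraries overlapped the enhancer-null libraries and lay above all wild-type libraries. Enhancer loss gave a log2 difference of 0.61 (SE 0.23, edgeR adjusted p = 0.0418), which held in 8 of 18 alternatives and was lost without any 1 of replicates 1, 2 and 3 of either group. The T354M libraries had 120 to 224 expected counts, and T354M against GATA2 gave 0.60 (SE 0.23, edgeR adjusted p = 0.12), or 0.57 with the replicate block over the 16 enhancer-null libraries (SE 0.14, edgeR adjusted p = 0.0137).

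Ikzf1 encodes Ikaros, a zinc finger factor of lymphoid and early myeloid progenitors. It was 336, 319, 293 and 381 CPM in the R307W libraries, 289, 274, 256 and 292 CPM in the T354M libraries, 324, 341, 303 and 358 CPM in the GATA2 libraries, 242, 263, 242 and 239 CPM in the enhancer-null libraries and 263, 324, 329 and 296 CPM in the wild-type libraries. The R307W and GATA2 libraries lay above all enhancer-null libraries, while the wild-type and T354M libraries overlapped them. Enhancer loss gave a log2 difference of -0.30 (SE 0.09, edgeR adjusted p = 0.00948), a call lost without wild-type replicate 2 (edgeR adjusted p = 0.0507) or 3 (edgeR adjusted p = 0.0644). R307W gave 0.43 (SE 0.09, edgeR adjusted p = 0.00246) and GATA2 gave 0.43 (SE 0.09, edgeR adjusted p = 0.00216), while T354M gave 0.17 (SE 0.09, edgeR adjusted p = 0.189).

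Between the variants, Ikzf1 followed the order of Runx1. T354M against GATA2 gave -0.26 (SE 0.09, edgeR adjusted p = 0.0735), or -0.28 with the replicate block over the 16 enhancer-null libraries (edgeR adjusted p = 0.00534). R307W against T354M gave 0.26 (SE 0.09, edgeR adjusted p = 0.139), or 0.27 with that block (edgeR adjusted p = 0.0136). The Pearson r of Runx1 and Ikzf1 over the 20 libraries was 0.759, and among pairs of the 10 genes only Fli1 and Etv6 had a higher one, at 0.768. The abundance-weighted transcript length that RSEM gives for Ikzf1 was 4384 to 4657 bases in enhancer-null cells and 3844 to 4219 bases in wild-type cells, without overlap, which is a difference in the estimated mix of transcripts for which no test was made.

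Bmi1 was called by edgeR in none of the 8 comparisons in the fit of all 20 libraries without a replicate block and had the narrowest range of group means, with the highest 1.13 times the lowest. It was 43.4, 51.3, 55.3 and 46.1 CPM in the R307W libraries, 46.1, 50.9, 60.7 and 48.3 CPM in the T354M libraries, 41.6, 47.1, 59.4 and 51.6 CPM in the GATA2 libraries, 48.4, 57.8, 59.9 and 52.8 CPM in the enhancer-null libraries and 45.3, 55.5, 49.6 and 43.1 CPM in the wild-type libraries. All groups overlapped. The 95% interval of the log2 difference was -0.07 to 0.43 on enhancer loss and -0.38 to 0.12 with GATA2. On enhancer loss limma called it, at 0.41 on log2(TPM + 1) (limma adjusted p = 0.0368) and 0.43 on log2(TPM + 0.1) (limma adjusted p = 0.0365), while the DESeq2 Wald test gave 0.19 (DESeq2 adjusted p = 0.26). Of 17 tested partners in Polycomb complex 1 and genes of the Cdkn2a locus, a known target of BMI1, 3 were called lower on enhancer loss and none higher, beside 43.3% of all genes called. Among them Cbx7, a chromodomain subunit, averaged 4.25 ± 0.363 CPM in enhancer-null cells and 8.33 ± 0.651 CPM in wild-type cells (SD, n = 4 each; edgeR adjusted p = 0.00053). R307W and T354M each raised 3 of the 17 and lowered none, beside 17.5% and 17.4% of all genes called, and GATA2 raised 2 and lowered 1, beside 19.2%. Rnf2, the catalytic RING1B subunit, was raised by all 3 vectors and averaged 81.9 ± 6.19 CPM in R307W cells, 81.5 ± 1.97 CPM in T354M cells, 78.4 ± 4.00 CPM in GATA2 cells and 63.1 ± 8.11 CPM in enhancer-null cells (SD, n = 4 each; edgeR adjusted p = 0.012, 0.0134 and 0.0289 for the 3 vectors).

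Comparing the vectors with each other, R307W against GATA2 called none of the 10 genes with edgeR, beside 1.73% of all genes (0.587% higher, 1.14% lower). Etv6 and Myb were the 2 genes with an unadjusted p under 0.05 (0.00419 and 0.00443), and the DESeq2 Wald test and limma on log2(TPM + 1) also called 0. T354M against GATA2 called 3, all higher, beside 10% of all genes (3.86% higher, 6.14% lower), and 7 with the replicate block over the 16 enhancer-null libraries, beside 18.7% of all genes with that block. R307W against T354M called 2, Erg and Etv6, both lower, beside 3.49% of all genes (2.30% higher, 1.19% lower), and 4 with that block, beside 8.53%. Libraries lay apart in 2 genes above and 0 below for R307W against GATA2 (6.08% of tested genes, 3.08% above and 3.01% below), in 4 above and 1 below for T354M against GATA2 (14.8%, 7.28% and 7.51%), and in 1 above and 2 below for R307W against T354M (8.14%, 4.56% and 3.58%). The median log2 difference of the 10 genes was 0.04 for R307W against GATA2, 0.27 for T354M against GATA2 and -0.18 for R307W against T354M, beside 0.01, 0.02 and -0.01 over all genes.

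GATA2 cells were also compared with wild-type cells. Of the 10 genes, 5 were higher in GATA2 cells (Myb, Runx1, Fli1, Mecom and Etv6) and none was lower, beside 14.7% of all genes called higher and 16% called lower, 30.7% in all. In the same 5 genes all GATA2 libraries lay above all wild-type libraries, beside 25.3% of tested genes apart in either direction, 12% above and 13.4% below. The 5 without a call were Myc, Erg, Hlf, Ikzf1 and Bmi1, and Erg passed without wild-type replicate 2 (edgeR adjusted p = 0.0173). This comparison shares the wild-type libraries with the comparison for enhancer loss and the GATA2 libraries with that for the GATA2 vector.

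**Figure D4:**
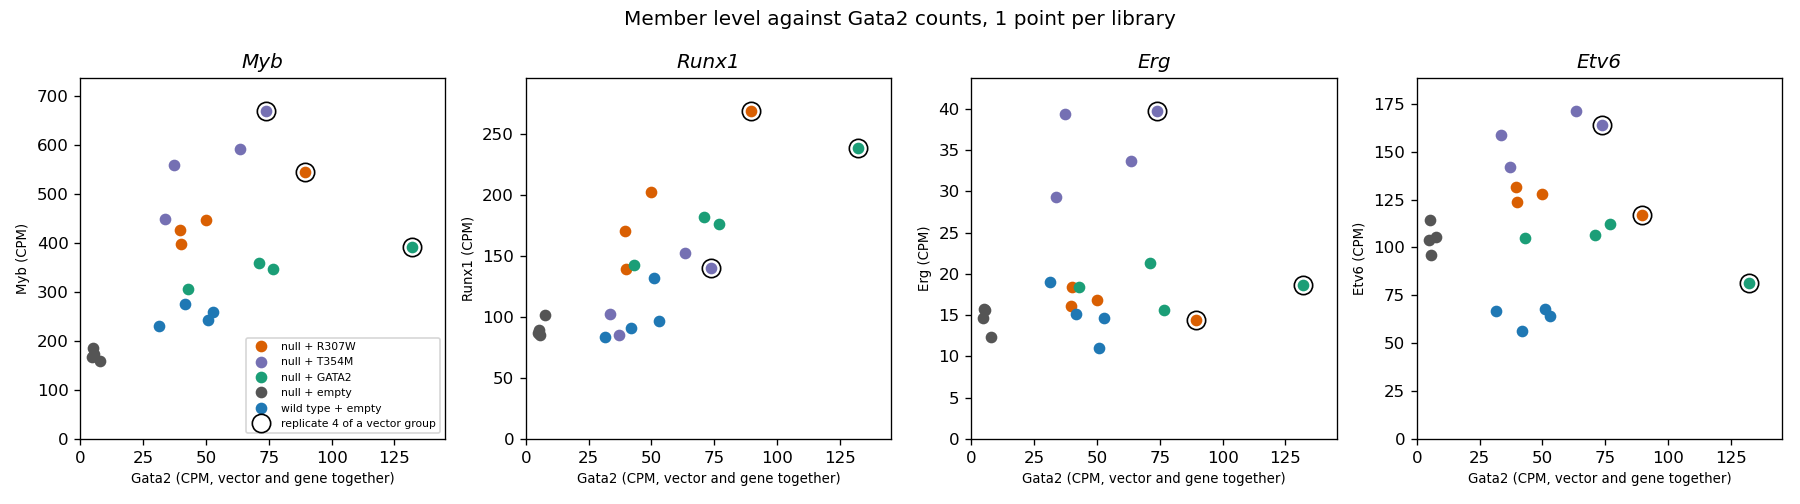
CPM of 4 of the genes in each library against the CPM of Gata2 in the same library, on linear axes that start at 0, with the groups in colour. Replicate 4 has the highest Gata2 with each vector, at 89.5 CPM with R307W, 73.8 CPM with T354M and 132 CPM with GATA2.

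Within the vector groups, replicate 4 stood apart in several of the 10 genes as well as in Gata2. It had the highest Myb and the highest Ikzf1 of its group with all 3 vectors and the lowest Mecom with all 3. Myb was 545 CPM in replicate 4 and averaged 424 CPM in replicates 1 to 3 with R307W, 669 and 534 CPM with T354M, and 392 and 337 CPM with GATA2. Replicate 4 of each vector group also had the lowest value of its group on the second principal component, which held 21.5% of the variance. Without replicate 4 of every group the calls of Myb, Runx1, Ikzf1, Erg and Etv6 against enhancer-null cells remained, and those of Mecom were lost with R307W (edgeR adjusted p = 0.0791) and T354M (edgeR adjusted p = 0.065).

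A list headed heptad partners and GATA complex held 10 genes, 9 of them tested. They were Tal1, Lyl1, Lmo2, Ldb1, Gata1, Gata3, Zfpm1, Gfi1, Gfi1b and Nfe2. Only Tal1, Lyl1 and Lmo2 belong to the heptad as given above, so the counts are not those of the heptad alone. On enhancer loss 8 of the 9 were lower and none was higher, beside 43.3% of all genes called (23.2% lower), with a median log2 difference of -1.30 beside -0.05 over all genes. Tal1, the basic helix-loop-helix partner of GATA factors, averaged 30.4 ± 2.20 CPM in enhancer-null cells and 142 ± 21.3 CPM in wild-type cells (SD, n = 4 each; log2 -2.22, edgeR adjusted p = 1.15e-08). Gata1, the erythroid GATA factor, averaged 5.52 ± 1.31 CPM in enhancer-null cells and 90.7 ± 9.20 CPM in wild-type cells (log2 -4.03, edgeR adjusted p = 1.44e-07). The 7 erythroid markers, all lower on enhancer loss, summed to 87.1 to 502 CPM in enhancer-null cells and 2144 to 4045 CPM in wild-type cells, and their part in these results was not tested.

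R307W raised 6 of these 9 listed genes and lowered 1, T354M raised 3 and GATA2 raised 6, beside 17.5%, 17.4% and 19.2% of all genes called. Of the 7 erythroid markers, 4 were called lower with T354M than with GATA2 and none higher. The 7 summed to 82.9 to 226 CPM in R307W cells, 24.6 to 91.7 CPM in T354M cells, 73.6 to 228 CPM in GATA2 cells and 87.1 to 502 CPM in enhancer-null cells, and their part in these results was not tested. Among the 6 mast cell and basophil markers, 4 were also called lower with T354M than with GATA2 and none higher, beside 10% of all genes called. They summed to 468 to 876 CPM in R307W cells, 404 to 1309 CPM in T354M cells and 1014 to 3350 CPM in GATA2 cells. None of the 6 megakaryocyte markers was called between T354M and GATA2. The part of both lists was not tested. Gata1 averaged 36.7 ± 16.3 CPM in R307W cells, 12.2 ± 6.62 CPM in T354M cells, 48.6 ± 18.2 CPM in GATA2 cells and 5.52 ± 1.31 CPM in enhancer-null cells (SD, n = 4 each), and it was lower with T354M than with GATA2 (log2 -1.99, SE 0.35, edgeR adjusted p = 0.000835). Tal1 was also lower with T354M, at 28.7 ± 3.80 CPM, than with GATA2, at 56.5 ± 14.8 CPM (log2 -0.98, SE 0.17, edgeR adjusted p = 0.000581). Gfi1, a repressor needed for neutrophil development, went the other way. It averaged 22.3 ± 2.52 CPM in R307W cells, 62.5 ± 7.82 CPM in T354M cells, 15.8 ± 1.04 CPM in GATA2 cells and 11.5 ± 1.42 CPM in enhancer-null cells (SD, n = 4 each). T354M against GATA2 gave 1.98 for Gfi1 (SE 0.11, edgeR adjusted p = 6.34e-09).

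Among 14 tested stem and progenitor factors outside the 10, 9 were higher and 3 lower on enhancer loss, beside 20.1% and 23.2% of all genes, with a median log2 difference of 0.74. The 3 lower genes included Gata2, the gene whose enhancer was removed. Meis1, a HOX cofactor, averaged 33.9 ± 2.58 CPM in enhancer-null cells and 16.3 ± 0.494 CPM in wild-type cells (SD, n = 4 each; edgeR adjusted p = 2.07e-06). Mllt3, a stem cell maintenance factor, averaged 12.95 ± 1.495 CPM in enhancer-null cells and 59.1 ± 9.22 CPM in wild-type cells (SD, n = 4 each; edgeR adjusted p = 7.94e-09). The 6 monocyte and macrophage markers, all higher on enhancer loss, summed to 1602 to 1679 CPM in enhancer-null cells and 272 to 443 CPM in wild-type cells, and the part of these and of the dendritic cell markers in these results and in those of Fli1, Etv6, Mecom and Hlf was not tested. R307W raised 2 of the 14 and lowered 2, T354M raised 2 and lowered 1, and GATA2 raised 3 and lowered 1, with Gata2 itself among those raised, beside 17.5%, 17.4% and 19.2% of all genes called in either direction. Cebpa, a factor of granulocyte commitment, averaged 89.5 ± 13.3 CPM in R307W cells, 83.3 ± 13.4 CPM in T354M cells, 73.7 ± 10.3 CPM in GATA2 cells and 46.4 ± 6.57 CPM in enhancer-null cells (SD, n = 4 each; edgeR adjusted p = 7.92e-05, 0.000232 and 0.00164 for the 3 vectors).

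Relatives of the 10 genes from the same families were changed in both directions. Of 20 tested, 6 were higher and 6 lower on enhancer loss, 4 higher and 3 lower with R307W, 6 higher and 3 lower with T354M, and 7 higher and 3 lower with GATA2. The shares of all genes called in either direction were 43.3%, 17.5%, 17.4% and 19.2% in the same order. Ikzf2, which encodes the Ikaros relative Helios, averaged 219 ± 66.6 CPM in R307W cells, 182 ± 57.6 CPM in T354M cells, 148 ± 24.6 CPM in GATA2 cells and 23.3 ± 2.22 CPM in enhancer-null cells (SD, n = 4 each; edgeR adjusted p = 2.27e-08, 2.54e-08 and 2.31e-07 for the 3 vectors). Ikzf3, which encodes Aiolos, averaged 14.6 ± 6.11 CPM in R307W cells, 16.3 ± 7.59 CPM in T354M cells, 21.6 ± 7.18 CPM in GATA2 cells and 0.644 ± 0.242 CPM in enhancer-null cells (SD, n = 4 each; edgeR adjusted p = 5.74e-07, 2.18e-07 and 2.25e-07 for the 3 vectors). Ets1, an ETS factor of lymphoid cells, averaged 20.4 ± 4.96 CPM in R307W cells, 33.4 ± 12.2 CPM in T354M cells, 65.3 ± 18.9 CPM in GATA2 cells and 12.9 ± 1.16 CPM in enhancer-null cells (SD, n = 4 each). Both variants were below GATA2 in Ets1, R307W by a log2 difference of -1.68 (SE 0.23, edgeR adjusted p = 0.000496) and T354M by -0.97 (SE 0.23, edgeR adjusted p = 0.00827).

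For the remaining genes the most similar patterns over the 20 libraries, by Pearson r of log2 CPM, were Ext2 (0.896) and Nup210 (0.878) for Myc, Ptprs (0.944) and Klhl18 (0.937) for Runx1, and Surf4 (0.955) and Ostc (0.949) for Fli1. They were Ttll4 (0.919) and Senp5 (0.886) for Hlf, Zdhhc20 (0.963) and Gria3 (0.957) for Etv6, Sos2 (0.939) and Pitpnc1 (0.929) for Ikzf1, and Tmem33 (0.902) and Sh3bgrl (0.888) for Bmi1. In GRCm38 none of the 10 genes overlaps another. Runx1 (chr16:92601466-92826149) and Erg (chr16:95359169-95586593) both lie on the minus strand of chromosome 16. Hlf (chr11:90336536-90390895, minus strand) and Ikzf1 (chr11:11685003-11772926, plus strand) share chromosome 11. A gene on the opposite strand overlaps 6 of the 10, and since the strand setting of the counting was not given in the sources used here, its reads cannot be told apart from theirs. These opposite-strand genes held at most 0.191% of a member's counts, except Mecomos at 1.34% of Mecom. Fli1, Mecom and Etv6 also overlap genes on their own strand, whose counts were not examined.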

How the data were processed

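Gene expression was measured by RNA-seq of total RNA in 20 libraries, prepared with the NuGEN Ovation protocol per the labels, and STAR 2.5.2b, RSEM 1.3.0 and the build mm10 are given per the submitters' processing notes. The deposited files list expected counts, the reads that RSEM apportions to each gene. They also list TPM, which the authors obtained by scaling to length and library total, and the deposited abundance-weighted transcript length in bases. Filters, trimming and the strand setting are not given in the sources used here. FPKM was not used here. Groups followed the labels, also for the GATA2 group, whose tables are named without the enhancer-null genotype. Of 53379 identifiers, 53274 matched a symbol in the GENCODE annotation of GRCm38, and the 105 others took no more than 0.0148% of a library.

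Expected counts were rounded, filtered with filterByExpr by group (15835 genes left), scaled by TMM and tested with edgeR 4.0.16 (quasi-likelihood F test) in R 4.3.3, in a model of 5 group means over all 20 libraries (15 residual degrees of freedom, common dispersion 0.0468). Benjamini-Hochberg adjustment ran over every tested gene of a comparison, and calls needed an adjusted p under 0.05. SEs were obtained as the log2 difference over the root of F. CPM values are edgeR's cpm on TMM-scaled library sizes. Correlations used log2 CPM with a prior count of 2. The procedure was tested on simulated data. No replicates were duplicates (chi-square over its degrees of freedom 16.5 to 102).

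Replicate numbers come from the labels. Deviations from the group means of libraries with the same number were correlated at 0.12 to 0.30 for GATA2 against the empty vector, 0.22 to 0.62 for R307W against GATA2, 0.16 to 0.55 for T354M against GATA2 and 0.20 to 0.67 for R307W against T354M. All these pairs exceeding 0.1, the numbers were taken to pair the libraries in these 4 comparisons. The fit with the replicate block stands beside each result whose call it changes. Deviations within a group cancel out, so a positive correlation at the same number lowers those at unlike numbers on average, by arithmetic alone. Most pairs of unlike number correlated less, but not all did. T354M replicate 2 and GATA2 replicate 3 correlated at 0.302, against 0.159 for replicate 2 of both. R307W replicate 3 and T354M replicate 2 correlated at 0.338, against 0.204 for replicate 3 of both. The pairing is therefore an assumption, on which the calls with the block rest. In the other 4 comparisons at least 1 pair was at or below 0.1.

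Named genes were the 10 members in every comparison, Gata2, the 3 called genes of lowest adjusted p per list in enhancer loss and each vector comparison, and the 2 genes most like each member. Values of such genes in the other groups were added for comparison. Members and lists were chosen with earlier results of these data known. Alternatives were DESeq2 1.42.0 size factors and Wald test, TMM without mitochondrially encoded genes, no filter, the replicate block, only the 8 libraries of a comparison, limma 3.58.1 on log2(TPM + 1) and log2(TPM + 0.1), and leaving out each library or replicate 4 of all groups. Summed markers of B cells ran from 5.81 to 23.9 CPM, those of T and NK cells from 3.62 to 42.5 CPM, of megakaryocytes from 81.2 to 488 CPM, of mast cells and basophils from 35.4 to 3350 CPM, of dendritic cells from 36.2 to 480 CPM, of endothelial cells from 49.7 to 187 CPM and of hepatocytes from 162 to 3218 CPM over the libraries.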

Additional observations from a re-analysis of the deposited data

Results flagged for a closer look

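Ikzf1 in enhancer-null replicate 2 was 263 CPM, while the other 3 enhancer-null libraries were 242, 242 and 239 CPM. The gap to the nearest library was 0.882 of the range of the group, above the critical value of 0.829 for 4 libraries in Dixon's test. Of 50 groups of 4 values examined (10 genes in 5 groups) this was the 1 past the critical value, and chance gives about 1 in 20. The Ikzf1 calls with R307W and GATA2 held without that library.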

How the results depend on the processing

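Of the 27 calls made over 10 genes and 8 comparisons, and of 15 further pairs called under some alternative, none changed direction. Over these 42 pairs and 785 alternative values, 713 stayed on the same side of the threshold, 40 lost the call and 32 gained it. Another 38 pairs were never called, and 61 of their 715 alternative values changed sign, none larger than 0.25 in size and all with an adjusted p of at least 0.448. The cause of the changes listed here was not tested.

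Members called with GATA2 were 5, in place of 3, under the replicate block over the 16 enhancer-null libraries and with only the 8 libraries compared. For T354M against GATA2 they were 7 with that block and 5 with the DESeq2 Wald test, in place of 3. For R307W against T354M they were 4 with that block, in place of 2, while only the 8 libraries, limma on either TPM scale with or without the filter, and omission of replicate 4 of every group each gave 1. Without 1 library the counts were 3 to 5 for T354M against GATA2 and 1 to 2 for R307W against T354M. Without GATA2 replicate 3, T354M against GATA2 gave 5.

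Counts over all genes moved by more than 1.5 times as follows. The block over the 16 enhancer-null libraries gave 5258 with GATA2 (against 3042), 5341 with R307W (against 2773), 4984 with T354M (against 2751), 637 for R307W against GATA2 (against 274), 2893 for T354M against GATA2 (against 1583) and 1319 for R307W against T354M (against 553). The block over 20 libraries gave 441 for R307W against GATA2 and 888 for R307W against T354M. Only the 8 libraries compared gave 117 and 250, and the DESeq2 Wald test gave 432 for R307W against GATA2. Limma on log2(TPM + 1), on log2(TPM + 0.1) and on log2(TPM + 1) without the filter gave 1939, 1815 and 1331 with GATA2, 1707, 1590 and 1115 with R307W, 1681, 1580 and 1069 with T354M, 150, 134 and 131 for R307W against GATA2, 974, 1003 and 822 for T354M against GATA2, and 297, 335 and 215 for R307W against T354M. Without replicate 4 of every group the counts were 1996, 1509, 1681, 162, 1013 and 316 in the same order. Without 1 library the counts ran from 1574 to 3393 with GATA2, 1276 to 2976 with R307W, 1401 to 3074 with T354M, 126 to 376 for R307W against GATA2, 979 to 1679 for T354M against GATA2 and 282 to 573 for R307W against T354M. In each of these 6 the lowest count came without replicate 4 of a vector group. Counts moved by over 1.5 times also without enhancer-null replicate 4 (1764 with R307W, 1737 with T354M), without T354M replicate 1 (1758 with T354M), without R307W replicate 1 (364 for R307W against T354M), and for R307W against GATA2 without GATA2 replicate 1 (177) or R307W replicate 1, 2 or 3 (162 to 170).

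The share of higher among the called genes of enhancer loss was 46.4%, and 61.1% with limma on log2(TPM + 1), and for GATA2 against wild-type cells it was 48% and 62.7%. With R307W it was 57.3%, and 69.4% on log2(TPM + 0.1), 75.4% on log2(TPM + 1) without the filter, 51% with DESeq2 size factors, 48.7% with the DESeq2 Wald test and 45.4% with the block over 16 libraries, so that the majority turned. With T354M it was 53.3%, and ran from 43% with that block to 68.8% on log2(TPM + 1) without the filter. With GATA2 it was 57.1%, and ran from 47.2% with that block to 73.3% without GATA2 replicate 4. The median of all genes on enhancer loss shifted by 0.10 on log2(TPM + 0.1), the largest shift. In the comparisons where the replicate numbers were not taken to pair the libraries, the block over 20 libraries added calls of Myc (0.46, edgeR adjusted p = 0.0391) and Runx1 (0.37, edgeR adjusted p = 0.0394) with T354M. The block over 16 libraries added calls of Bmi1 with R307W (-0.18, edgeR adjusted p = 0.0222) and of Myc (edgeR adjusted p = 0.00718) and Fli1 (edgeR adjusted p = 0.00418) with T354M. The same-number pairs in these comparisons correlated at as low as 0.02 for R307W, 0.06 for T354M, -0.01 for enhancer loss and -0.08 for GATA2 against wild-type cells. The block changed no other call of the 10 genes beside those given with the results. Calls of Mecom with the variants and of Hlf on enhancer loss were lost with limma, and those of Ikzf1 (edgeR adjusted p = 0.0754) and Hlf on enhancer loss without the filter. Depth limits Mecom and Hlf, which held 9 to 224 expected counts in a library.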
